A study of Mus musculus with 15 samples.

Results

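The 9 genes described here belong to the myelin sheath. These genes, Mbp, Mobp, Mog, Mag, Mal, Cnp, Cldn11, Opalin and Ugt8a, were read in bulk RNA-seq of mouse thalamus as a measure of white matter and mature oligodendrocytes. The genes were taken by name and not by any measured value, and 9 of 9 were among the 29659 genes of the data. The 15 libraries came from mice of 4.5 months in 4 genotypes. 5EL (n = 5) carries the 5xFAD transgenes, is homozygous for human APOE4 (APOE4+/+) and keeps Lilrb4a (Lilrb4a+/+). 5ELKO (n = 4) is 5xFAD and APOE4+/+ and lacks Lilrb4a (Lilrb4a-/-). EL (n = 3) is APOE4+/+ with Lilrb4a intact and no 5xFAD transgene, and ELKO (n = 3) is APOE4+/+ and Lilrb4a-/- with no 5xFAD transgene. All 4 groups therefore carry human APOE4, and no group with mouse Apoe alone was analysed. The 5xFAD transgenes are driven by a neuronal Thy1 promoter, and Lilrb4a, an inhibitory receptor of myeloid cells, was deleted in the whole animal. The question put to these genes was whether the myelin transcripts of the thalamus differed with loss of Lilrb4a, with 5xFAD, or from library to library.

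Myelin is the compacted membrane that oligodendrocytes wrap around axons, and in the thalamus it lies mainly in the fibre tracts that cross the nuclei and in the laminae between them. In the central nervous system its proteins are made largely by oligodendrocytes, so their transcripts follow the number of these cells, the stage they have reached and the amount of tract taken into the sample. Schwann cells, which myelinate peripheral nerve, use several of the same genes. The 9 genes cover different parts of the sheath: Mbp and Mobp encode basic proteins of compact myelin, Mog and Mag are adhesion glycoproteins of its outer and innermost faces, Mal is a membrane protein of the sorting of myelin components, Cnp is an enzyme of the uncompacted channels, Cldn11 forms its tight junctions, Opalin is a glycoprotein of the inner loops and paranodes, and Ugt8a makes galactosylceramide, the main myelin glycolipid.

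No myelin gene passed the test in any comparison of genotypes. Their values varied between animals of 1 genotype by more than the genotypes varied between each other. On the log2 scale of the data, the mean of the 9 genes was 12.01 ± 0.10 (SD, n = 5) in 5EL, 12.09 ± 0.19 (n = 4) in 5ELKO, 12.04 ± 0.20 (n = 3) in EL and 12.03 ± 0.23 (n = 3) in ELKO. The libraries ran from 11.83 in EL 1 to 12.30 in ELKO 3, a range of 0.47, with both ends in mice without 5xFAD. In bulk tissue, fewer cells of a type and less RNA per cell cannot be told apart. The values are log2 values whose transform is not named, so the depth behind a single gene is unknown, and differences are given on that scale.

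The libraries were checked before the comparisons. All 105 pairs of libraries were compared and 0 were identical. Xist was at most 0.31 and Ddx3y, a Y-linked gene, was 10.34 to 10.68 in the 15 libraries, as in males. Lilrb4a did not exceed 2.33 in 5ELKO and ELKO and was 2.34 to 2.66 in 5EL and EL, a narrow gap at the low end of the scale. The labelled tissue matched its markers: the list of thalamic relay neuron genes averaged 12.15 to 12.52 in every library. A pair of libraries stood apart by choroid plexus RNA: Ttr, the transthyretin of choroid plexus, was 13.71 in 5EL 1 and 14.66 in ELKO 2, against 7.72 to 10.31 in the other 13. ELKO 1 stood apart by mouse Apoe, at 10.90 against 5.92 to 6.37 in the other 14, which goes against the genotype its label gives. GABAergic and reticular thalamus genes varied widely, from a list mean of 7.59 in EL 3 to 9.83 in 5ELKO 3. EL 1 had a hepatocyte list mean of 5.52, against 4.60 in EL 2 and EL 3 and 4.98 to 5.50 in 5ELKO, and EL 3 had an erythroid list mean of 6.93, against 4.78 to 5.90 in the other 14. These are the lowest and the third highest of the libraries in myelin, and the part of this RNA in their values was not tested. Results below are given with these libraries and, where a value rests on 1 of them, without it.

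Per length, Mbp was the most abundant of the 9 and Opalin the least. Dividing each gene's mean value by the bases of its exons in the GENCODE annotation of GRCm38 gave, in log2 per kilobase, 12.81 for Mbp, 11.71 for Mobp, 11.05 for Cnp, 11.03 for Mal, 10.89 for Cldn11, 9.99 for Mag, 9.63 for Mog, 8.28 for Ugt8a and 6.34 for Opalin. Mbp and Mobp held the first places by a wide margin, and Cnp, Mal and Cldn11 lay close together. The order of Cnp and Mal differed by less than the spread of either gene within a genotype (within-group SD 0.16 and 0.18). The Mbp locus also gives the Golli transcripts, which share exons with those of myelin and cannot be separated in a per-gene value. Cnp (chr11:100574904-100591729, plus strand) shared 4.23% of its exon bases with Dnajc7, and Mobp (chr9:120149707-120181484, plus strand) shared 1.15% with Gm38642. Read pairs there are ambiguous between the genes in counting without strand, and whether they were counted or left out was not checked. The other 7 genes shared 0 exon bases with a neighbour.

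**Figure D1:**
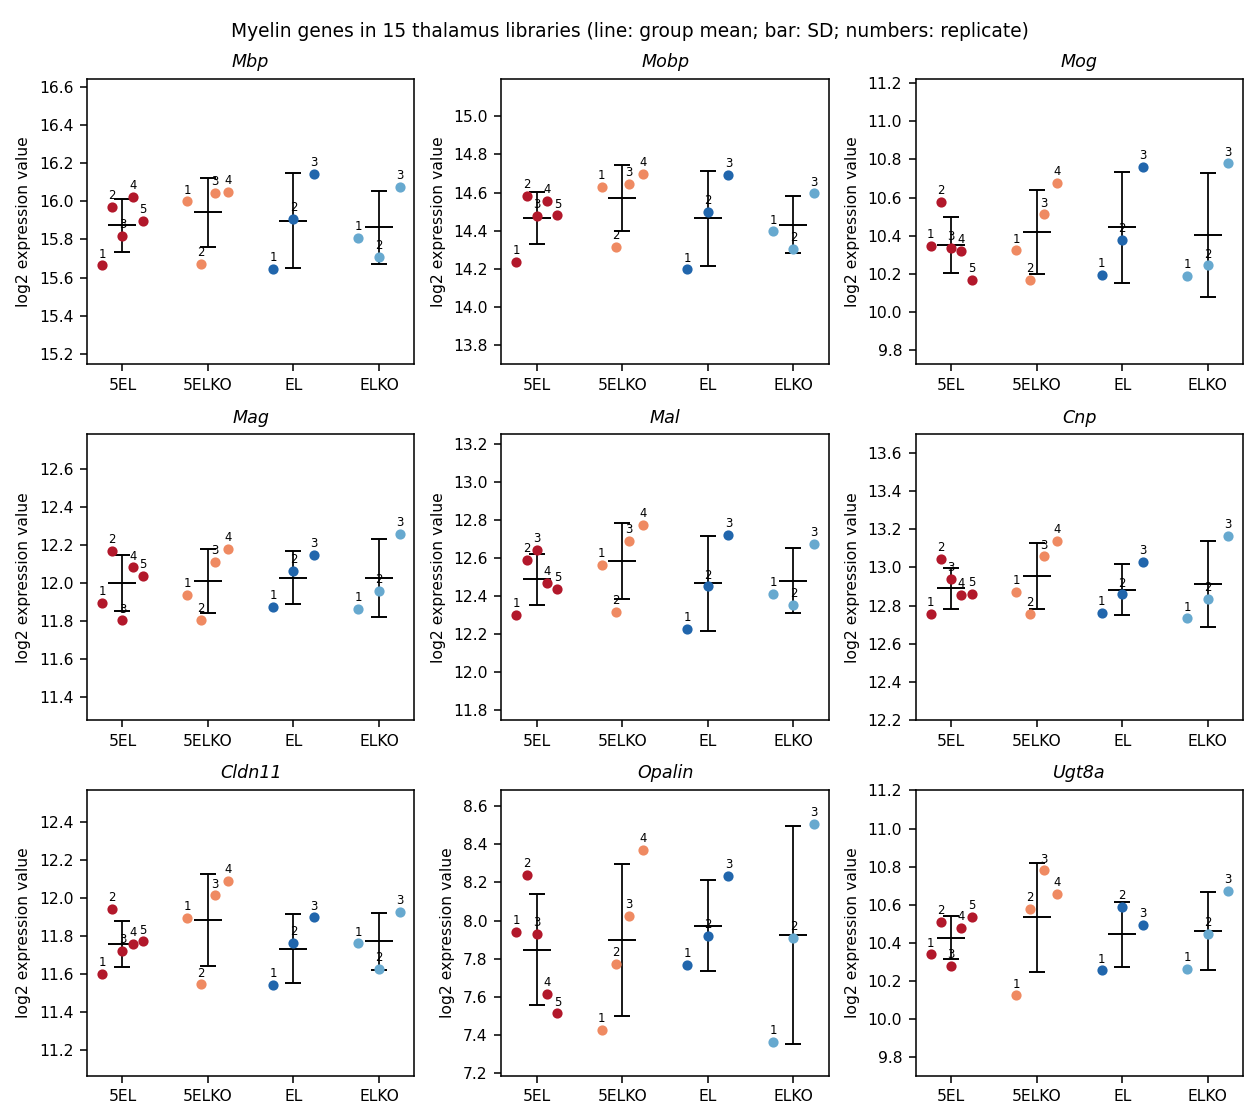
Log2 expression value (vertical axis, same span in each panel) of the 9 myelin genes in the 15 thalamus libraries by genotype; points are libraries with their replicate numbers, lines are group means and bars are SD. The genotypes overlap for every gene, and Opalin has the widest spread, from 7.36 in ELKO 1 to 8.51 in ELKO 3.

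Mbp, whose product holds the cytoplasmic faces of the sheath together, was 15.66, 15.97, 15.82, 16.02 and 15.90 in 5EL libraries 1 to 5. In 5ELKO libraries 1 to 4 it was 16.00, 15.67, 16.04 and 16.05. It was 15.64, 15.91 and 16.14 in EL and 15.81, 15.71 and 16.08 in ELKO. The 4 genotypes overlapped, and the lowest and the highest library were both EL. 5ELKO exceeded 5EL by 0.07 (SE 0.10, 95% confidence interval -0.14 to 0.28; limma, adjusted p = 0.999). Mobp, the second basic protein, ranged from 14.20 in EL 1 to 14.70 in 5ELKO 4 and its 5ELKO minus 5EL difference was 0.11 (95% confidence interval -0.09 to 0.30).

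Cldn11, the claudin of the myelin tight junction, had the largest difference between 5ELKO and 5EL among the 9. In 5EL it was 11.60, 11.94, 11.72, 11.76 and 11.77, and in 5ELKO 11.90, 11.55, 12.01 and 12.09. In EL it was 11.54, 11.76 and 11.90, and in ELKO 11.76, 11.63 and 11.93. The 5ELKO library 2 was lower than every 5EL library, while 5ELKO 3 and 5ELKO 4 were higher than every 5EL library. The difference of 0.13 (SE 0.10, 95% confidence interval -0.09 to 0.34) had a nominal p of 0.22 and an adjusted p of 0.999 in limma. Without 5ELKO 2 it was 0.24, which passed the nominal threshold but not the adjusted one (limma adjusted p = 1).

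Mal, the lipid-raft protein of myelin traffic, ranged from 12.23 in EL 1 to 12.77 in 5ELKO 4. Cnp, the phosphodiesterase of the cytoplasmic channels, was 12.76, 13.04, 12.94, 12.86 and 12.86 in 5EL and 12.87, 12.76, 13.06 and 13.14 in 5ELKO. In EL it was 12.76, 12.86 and 13.03, and in ELKO 12.73, 12.84 and 13.16. Cnp had the narrowest range of the 9, 1.35-fold between the lowest and the highest library, and its 4 genotypes overlapped. Mag, the adhesion protein of the membrane next to the axon, had the closest genotype means, which spanned 0.03, and ranged from 11.80 to 12.26. Mog, the glycoprotein of the outermost lamella, ranged from 10.17 in 5ELKO 2 to 10.78 in ELKO 3.

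Opalin, a late marker of myelinating oligodendrocytes, was 7.94, 8.24, 7.93, 7.62 and 7.51 in 5EL and 7.43, 7.77, 8.02 and 8.37 in 5ELKO. It was 7.77, 7.92 and 8.23 in EL and 7.36, 7.91 and 8.51 in ELKO. The lowest and the highest library were both ELKO, 2.21-fold apart, and the ranges of 5EL, 5ELKO and EL lay within that of ELKO. Its within-group SD of 0.38 was the largest of the 9, and its 5ELKO minus 5EL interval was correspondingly wide, -0.34 to 0.44 around 0.05.

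Ugt8a, the galactosyltransferase of galactosylceramide synthesis, was 10.34, 10.51, 10.28, 10.48 and 10.54 in 5EL and 10.12, 10.58, 10.78 and 10.66 in 5ELKO. It was 10.25, 10.59 and 10.49 in EL and 10.26, 10.45 and 10.67 in ELKO. The 5ELKO libraries 2, 3 and 4 were above every 5EL library, and 5ELKO 1 was the lowest of all 15. The difference of 0.11 (95% confidence interval -0.13 to 0.34) became 0.24 without 5ELKO 1, which passed the nominal threshold but not the adjusted one (limma adjusted p = 0.999).

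Loss of Lilrb4a with 5xFAD, the comparison the study made (a further 5ELKO library of the study was not analysed here), gave 9 of 9 myelin genes a positive difference of 5ELKO over 5EL, from 0.01 for Mag to 0.13 for Cldn11. None was called: 0 of 9 had an adjusted p under 0.05, against 0.0191% of the 15743 genes tested in limma, and 0 of 9 had a nominal p under 0.05, against 2.49%. The nominal p of the 9 genes ran from 0.22 to 0.897. For the 8 genes other than Opalin the 95% confidence intervals lay between -0.18 and 0.34, which is 11.5% lower to 27.0% higher in 5ELKO. Each interval included 0, and a change within a gene's own interval is not excluded. The shared sign is no count of 9 independent genes, since the genes moved together from library to library, and the mean difference of 0.08 was smaller than the within-group SD of that mean, 0.18. Leaving out 1 library moved it between 0.01, without 5ELKO 4, and 0.15, without 5ELKO 2. Without 5ELKO 2, 3 of 9 genes had a nominal p under 0.05 (Cldn11, Mobp and Mal) where 2.49% of all genes did, and without 5ELKO 1, 1 of 9 (Ugt8a) where 3.17% did, while the limma adjusted p of each stayed at 0.999 or above.

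Loss of Lilrb4a without 5xFAD gave differences of ELKO over EL from -0.05 for Opalin to 0.04 for Cldn11, of which 4 of 9 were positive. At an adjusted p under 0.05 limma called 0 of 9 myelin genes and 0% of the 15804 genes tested, and at a nominal p under 0.05 it called 0 of 9 against 2.35%. The 95% confidence intervals of the 8 genes other than Opalin lay between -0.40 and 0.32. EL and ELKO libraries of the same number deviated together over all genes, but so did libraries 1 and 2 of unlike number. Within these pairs the mean of the 9 genes differed by 0.04, -0.12 and 0.06 for ELKO minus EL, and Opalin by -0.40, -0.01 and 0.27. The pairs went in both directions for each. Leaving out 1 library moved the mean difference of the 9 genes between -0.14, without ELKO 3, and 0.09, without EL 3, and it was -0.11 without EL 1. Without ELKO 1, the library high in mouse Apoe, it was 0.08, and 3 of 9 genes changed sign. With the pair as a block in a fit of these groups alone, the count of all genes at a nominal p under 0.05 was 1110, against 173 in the same libraries without the block and 372 in the fit of all 15, and that of the myelin genes was 0 of 9 in each.

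5xFAD itself, with Lilrb4a intact, left the 9 genes between -0.13 (Opalin) and 0.03 (Cldn11) for 5EL minus EL, 4 of 9 positive. Their limma adjusted p ran from 0.834 to 0.996, with 0 of 9 at a nominal p under 0.05 against 7.7% of genes and 0 of 9 at an adjusted p under 0.05 against 0%. Without Lilrb4a, 5ELKO minus ELKO ran from -0.03 (Opalin) to 0.14 (Mobp), 7 of 9 positive, with 0 of 9 at a nominal p against 2.37% and 0 of 9 at an adjusted p against 0%. Without 5ELKO 2, Cldn11 had a nominal p of 0.0418 in this comparison (difference 0.23, adjusted p = 1). These comparisons share their libraries with those above, so they are not further evidence for any of them. For 5EL minus EL the mean of the 9 genes was -0.03, and -0.13 without EL 1 or 0.07 without EL 3. For 5ELKO minus ELKO it was 0.06, and -0.02 without ELKO 1, the library high in mouse Apoe, or 0.19 without ELKO 3.

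The dependence of the Lilrb4a effect on 5xFAD was tested as an interaction, (5ELKO minus 5EL) minus (ELKO minus EL). It was positive for 9 of 9 genes, from 0.01 for Mag to 0.14 for Mobp, with standard errors of 0.15 to 0.35. In limma 0 of 9 passed at an adjusted p under 0.05 (0% of all genes) or at a nominal p under 0.05 (2.73%). The mean of the 9 interaction values was 0.08, and 0.01 without 5EL 1 and ELKO 2, the libraries high in Ttr. With 1 library left out it ran from -0.01, without EL 3, to 0.22, without ELKO 3. Without ELKO 1, the library high in mouse Apoe, it was 0.0018, and 4 of 9 genes changed sign.

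**Figure D2:**
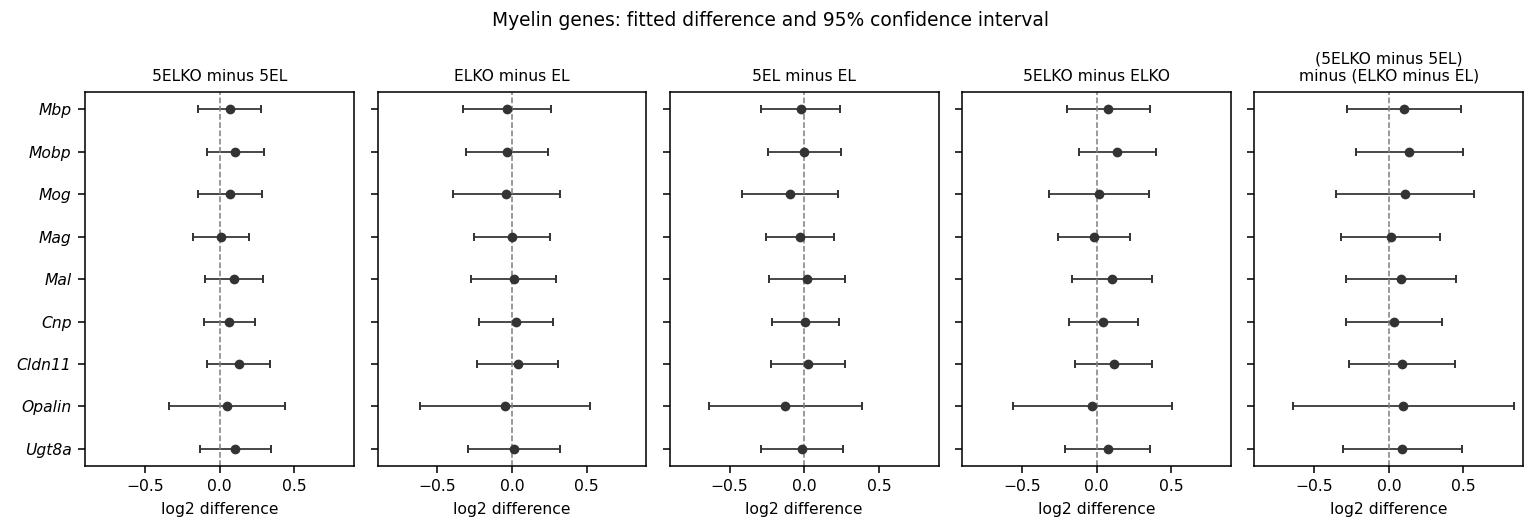
Fitted log2 difference (horizontal axis) of each myelin gene in the 4 genotype comparisons and in the interaction, with its 95% confidence interval from limma. Every interval includes 0, and those of Opalin are the widest.

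The level of the myelin genes differed from library to library within each genotype. The 5 libraries with the highest mean were ELKO 3, 5ELKO 4, EL 3, 5ELKO 3 and 5EL 2, drawn from all 4 genotypes. ELKO 3, 5ELKO 4 and 5ELKO 3 held 9 of 9 genes among their 5 highest values of the 15, EL 3 held 8 of 9 and 5EL 2 held 5 of 9. At the other end, EL 1 had 9 of 9 genes among their 5 lowest values, ELKO 1 had 8, 5EL 1 and 5ELKO 2 had 7 each and ELKO 2 had 6. Of the variance of each gene over the 15 libraries, 0.82% (Mag) to 13.2% (Cldn11) lay between genotype means. Means of few animals differ somewhat without any effect, so this share is not an amount explained by genotype. As a reference for a response to 5xFAD in the same libraries, C4b, a complement gene that glia raise near amyloid, had 66.8% of its variance between genotypes, and Serpina3n, an acute-phase protease inhibitor, had 60.6%.

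**Figure D3:**
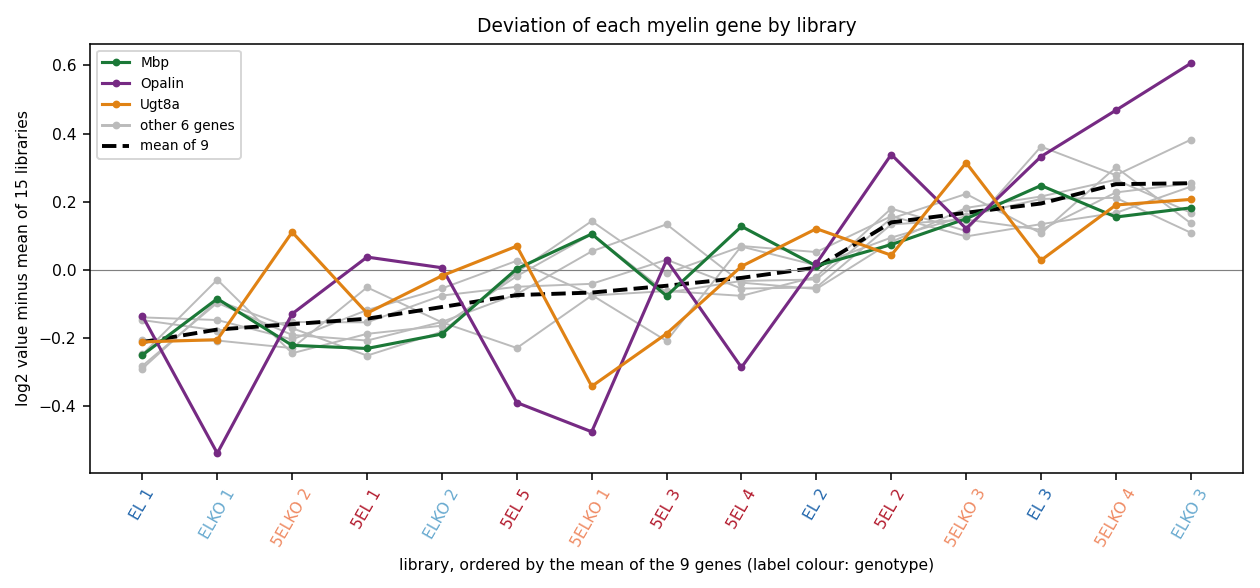
Deviation of each myelin gene from its own mean over 15 libraries (vertical axis, log2), with libraries ordered by the mean of the 9 genes (dashed line) and labels coloured by genotype. Most genes follow the dashed line, whereas Opalin falls well below it in ELKO 1, 5ELKO 1, 5EL 5 and 5EL 4, and Ugt8a is lowest in 5ELKO 1.

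Over the 15 libraries the genes correlated positively in 36 of 36 pairs, with a median Pearson r of 0.77 and 22 of 36 pairs at 0.7 or more. All values of a library share 1 RNA sample and 1 scaling, so these are descriptions. Mbp and Mobp were closest, at 0.97, and Mbp, Mobp, Mal and Cldn11 formed the tightest set, with no pair under 0.87. Cnp was the gene nearest the mean of the other 8, with r = 0.96. A single component held 72.8% of the variance of the 9 genes and the second 17.2%. With the genotype means taken out, Mbp and Mobp still had r = 0.98.

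Opalin and Ugt8a departed from this pattern in different ways. Opalin followed Mog (r = 0.86) and Cnp (r = 0.80) but not closely the basic proteins (r = 0.40 with Mbp and 0.38 with Mobp). Its value minus that of Mbp ran from -8.57 in 5ELKO 1 to -7.57 in ELKO 3, and was also low in ELKO 1 (-8.45), 5EL 4 (-8.41) and 5EL 5 (-8.39). These 4 low libraries came from 3 genotypes. Opalin changed more than the others with the general level, by 1.56 log2 units per unit of the mean of the other 8, whereas Mag changed by 0.77. Ugt8a had a median r of 0.48 with the other genes and its highest with Mag, 0.67.

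**Figure D4:**
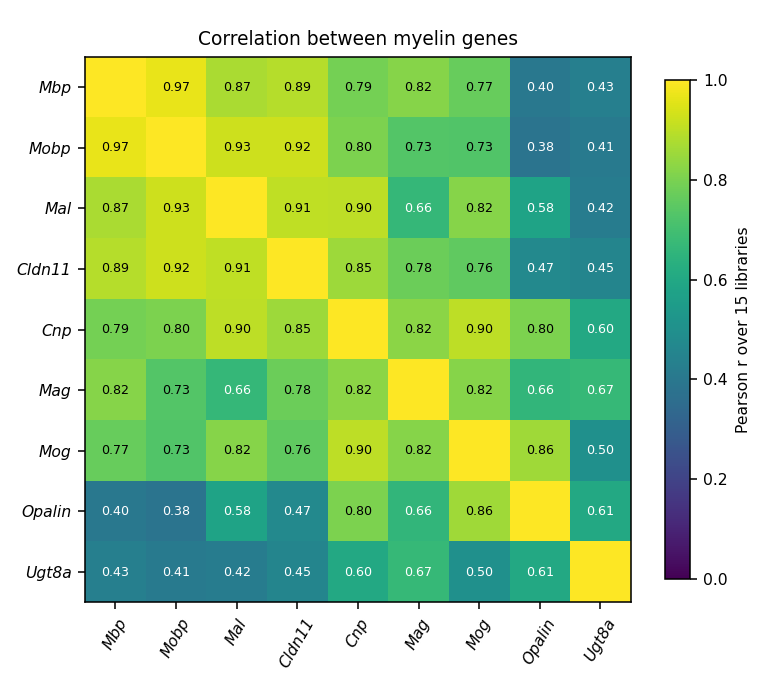
Pearson correlation over 15 libraries between the 9 myelin genes (colour scale from 0 to 1, r printed in each cell). Mbp, Mobp, Mal and Cldn11 form a block at 0.87 to 0.97, and the rows of Opalin and Ugt8a are the lowest.

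The promoters of Mobp, Cnp and Opalin are shown because these genes mark the range of behaviour, Mobp nearest to Mbp, Cnp nearest to the mean of the others and Opalin farthest from Mbp. Each is 300 bases of GRCm38.p6 from RefSeq, 250 before the transcription start and 50 after it, read 5′ to 3′ on the strand of the gene. Promoters of 8 of the 9 genes were searched, all but that of Mbp. Capitals mark matches, on either strand, to ACAAAG, the core of the motif bound by Sox factors, or to CTGGNAC, a core of the motif bound by Myrf; Sox10 and Myrf are the transcription factors that drive myelin genes. These are chr9:120149492-120149791 (plus strand) for Mobp, chr11:100574689-100574988 (plus strand) for Cnp and chr19:41077064-41077363 (minus strand) for Opalin.
Mobp: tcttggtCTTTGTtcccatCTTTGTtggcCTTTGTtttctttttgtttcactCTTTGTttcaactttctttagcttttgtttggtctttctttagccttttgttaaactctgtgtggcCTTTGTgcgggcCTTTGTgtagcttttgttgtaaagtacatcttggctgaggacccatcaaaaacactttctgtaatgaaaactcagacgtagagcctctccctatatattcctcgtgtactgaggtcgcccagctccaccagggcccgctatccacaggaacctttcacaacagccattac
Cnp: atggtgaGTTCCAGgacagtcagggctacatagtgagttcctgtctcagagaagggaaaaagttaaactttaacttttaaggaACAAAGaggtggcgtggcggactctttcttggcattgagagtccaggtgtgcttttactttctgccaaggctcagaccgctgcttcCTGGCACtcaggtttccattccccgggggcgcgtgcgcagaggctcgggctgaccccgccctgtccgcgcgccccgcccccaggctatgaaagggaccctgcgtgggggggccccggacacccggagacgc
Opalin: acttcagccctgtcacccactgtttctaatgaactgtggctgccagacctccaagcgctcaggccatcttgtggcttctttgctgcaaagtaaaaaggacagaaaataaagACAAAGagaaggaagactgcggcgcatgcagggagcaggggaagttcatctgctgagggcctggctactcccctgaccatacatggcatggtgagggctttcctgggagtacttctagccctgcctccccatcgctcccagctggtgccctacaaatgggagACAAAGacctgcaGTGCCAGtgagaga

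Mobp held 6 matches to the Sox letters, all as CTTTGT, and 0 to the Myrf letters. Cnp held 1 Sox match at -167 and Myrf matches at -243 and -81, counted from the start site. In Opalin a Sox match at 23 and a Myrf match at 36 lay downstream of the start, with a further Sox match at -139. Over the 8 genes, 4 had a Sox match (Cnp, Mag, Mobp and Opalin) and 4 a Myrf match (Cnp, Mag, Mog and Opalin), where 18.7% and 19.3% of 32851 promoters of the same length had them. Mag has 3 listed start sites, and a match in any was counted. TATAAA occurred in 0 of the 8 and in 13.6% of all promoters. Cldn11, Mal and Ugt8a had none of these letters in the window, and the Ugt8a promoter had 78.3% G and C against 43.3% for Mobp. Mobp with 6 Sox matches and Mal with 0 were correlated at 0.93 over the libraries.

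The other genes of mature oligodendrocytes followed the 9. A list of 40 further myelin and mature oligodendrocyte genes, averaged per library, had r = 0.94 with the mean of the 9, and was likewise lowest in EL 1 (10.64). Singly, 21 of the 40 had r of 0.7 or more, against 1.97% of the 15795 other genes tested. Tspan2 (0.93), Aspa (0.91), Sept4 (0.91) and Evi2a (0.89) were the nearest of the 40. Mapt (r = -0.61), Nfasc (-0.53) and Tppp (-0.30), which neurons or other cells also express, went the other way.

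By the rule of nearest pattern over all tested genes, the 10 genes most like the mean of the 9 were Ppp1r14a (r = 0.94), Tspan2 (0.93), Tmbim1 (0.92), Aspa (0.91), Sept4 (0.91), Atp1b3 (0.91), Tmem88b (0.90), Elovl1 (0.90), Cers2 (0.89) and Evi2a (0.89). Tspan2 is a tetraspanin of oligodendrocytes, Aspa splits N-acetylaspartate in them, and Elovl1 and Cers2 make the very long acyl chains of myelin lipids. Ppp1r14a, an inhibitor of protein phosphatase 1, ranged from 7.87 in ELKO 1 to 8.52 in ELKO 3, the same libraries that bounded Opalin. Among the most opposite genes were Acbd3 (r = -0.89), Srgap1 (-0.89), Dnajc6 (-0.89) and Jak1 (-0.88). With genotype means taken out, Ppp1r14a (0.96) and Tmbim1 (0.96) were still the nearest and Xpo5 (-0.95) the most opposite.

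Looked at singly, after their values had been seen, genes near to Mbp were Mobp (0.97), Plekhb1 (0.93) and Bcas1 (0.93), those of Opalin were Pllp, the plasmolipin of myelin (0.93), and Arglu1 (0.91), and those of Ugt8a were Fbxw15 (0.90) and Gna12 (0.88), followed by Fa2h (0.88), the hydroxylase that acts beside Ugt8a in galactolipid synthesis.

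Genes of the myelin lipid list were divided. Of 16 such genes 4 had r of 0.7 or more with the 9, namely Elovl1, Cers2, Gltp (0.78) and Fa2h (0.72), whereas Fasn, the fatty acid synthase that most cells use, had r = -0.69. The list as a whole had r = 0.77. None of 22 cholesterol synthesis genes reached 0.7, and the list mean had r = -0.30. Genes of the precursor and lineage list showed no common course (list r = 0.06, 21 genes): Olig1 (0.84) and Zfp488 (0.80) followed the 9, Sox10 had 0.64, Myrf 0.54 and Olig2 0.44, Pdgfra, the growth factor receptor of precursors, had 0.06, and Cacng4 (-0.68), Tnr (-0.63) and Gpr17 (-0.62), which precursors and committed cells express, went the other way.

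**Figure D5:**
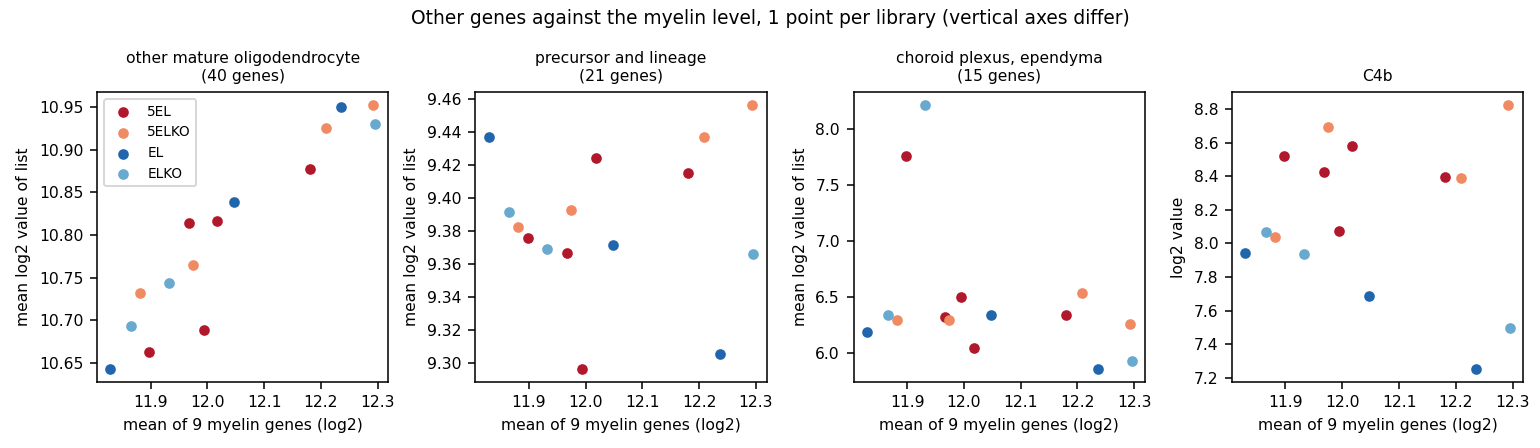
Mean log2 value of 3 gene lists and the value of C4b (vertical axes) against the mean of the 9 myelin genes (horizontal axis, log2), 1 point per library coloured by genotype. The 40 other mature oligodendrocyte genes rise with the myelin level (r = 0.94), the precursor list does not (r = 0.06), the choroid plexus list is high in 5EL 1 and ELKO 2, and the highest C4b values are in 5xFAD libraries.

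Among the factors that regulate the lineage, Myrf, Sox10 and Olig2 did not pass adjustment between 5ELKO and 5EL. Myrf, the factor that switches on myelin genes, was 10.81 ± 0.13 in 5ELKO (n = 4) and 10.63 ± 0.15 in 5EL (n = 5), a difference of 0.18 (SE 0.08) that passed the nominal threshold of 0.05 (limma adjusted p = 0.999). For Sox10, its partner, the difference was 0.21 (SE 0.11) and did not pass it, and for Olig2 the means were 9.63 in 5ELKO and 9.64 in 5EL. Among the 40 mature genes 3 were higher at a nominal p under 0.05 and 0 lower (Gjb1 0.21, Nipal4 0.23 and Myrf), 35 of 40 were positive and the median was 0.07. Over all genes tested 1.53% were higher and 0.959% lower at that threshold, 51.0% were positive and the median was 0.0016. The precursor list had 2 of 21 higher (Zfp488 0.14 and Enpp6 0.19, the latter a gene of newly formed oligodendrocytes) and 0 lower, with a median of 0.03. The myelin lipid list had 1 of 16 higher (Fa2h 0.22) and the cholesterol list 0 of 22. Adjusted p was 0.999 for each gene named.

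In ELKO against EL, Gsn, the actin-severing gelsolin (0.20), was the 1 of 40 mature genes at a nominal p under 0.05, a share near the 2.35% of all genes, and the median of the 40 was -0.05. The lipid (16 genes), cholesterol (22) and precursor (21) lists had 0 in either direction. In 5EL against EL the mature list had 1 gene higher (Cd9, 0.23) and 1 lower (Nkx6-2, -0.28), the lipid list 2 lower (Sptlc2, -0.18, and Scd1, -0.13) and the precursor list 1 higher (Vcan, 0.15) and 1 lower (Lhfpl3, -0.19), with limma adjusted p of 0.63 for each, where 3.82% of all genes were higher and 3.88% lower. In 5ELKO against ELKO it was 1 of 40 (Adamts4, 0.26), near the 2.37% of all genes, and in the interaction 2 of 40 (Nipal4, 0.38, and Nkx6-2, 0.35), beside 2.73% of all genes.

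The genes that glia raise near amyloid did not follow the myelin level. The response list had r = 0.13 with the 9 myelin genes. At a nominal p under 0.05, 1 of its 10 members was higher in 5ELKO than in 5EL (Anxa2, 0.21), where 1.53% of all genes were. In 5EL over EL it was 3 of 10, against 3.82% of all genes, and in 5ELKO over ELKO 3 of 10, against 1.48%. In the same libraries, C4b had r = -0.12 and Serpina3n r = -0.05 with the mean of the 9. C4b was 8.40 ± 0.20 in 5EL (n = 5), 8.49 ± 0.35 in 5ELKO (n = 4), 7.63 ± 0.35 in EL (n = 3) and 7.83 ± 0.30 in ELKO (n = 3). 5EL exceeded EL by 0.77 (SE 0.19) in C4b and by 0.99 (SE 0.25) in Serpina3n, both past the nominal threshold of 0.05 with a limma adjusted p of 0.63. In 5ELKO against ELKO the differences were 0.65 and 0.70, with an adjusted p of 0.999 for both. The genotype means of C4b spanned 0.86 and those of Serpina3n 0.99, whereas those of the 9 myelin genes spanned 0.03 (Mag) to 0.15 (Cldn11).

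Markers of peripheral myelin were low or mixed. Egr2, the regulator of Schwann cell myelination, lay between 1.57 and 1.75 in all 15 libraries, and Prx, a protein of their sheath, was at most 3.22, both below the filter on low values, whereas Ncmap, a further gene of that sheath, lay between 4.26 and 4.53, above it. Of 12 Schwann cell genes in the data 4 were below the filter in every library, and the mean of the other 8, from 7.52 in EL 3 to 7.78 in ELKO 1, had r = -0.40 with the 9. Pmp22, which central oligodendrocytes also express, had r = 0.83.

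Markers of other cell types were set beside the myelin level in the same way. Over 15 libraries the r of list means with the mean of the 9 was 0.65 for sex-linked genes, 0.58 for endothelium and pericytes, 0.33 for erythroid, 0.12 for microglia, 0.04 for general neuron, 0.02 for astrocyte and -0.01 for GABAergic genes. It was -0.12 for hepatocyte, -0.18 for thalamic relay neuron, -0.25 for hypothalamus and habenula, -0.32 for striatal neuron, -0.38 for choroid plexus and -0.41 for cortex and hippocampus genes. Vtn of pericytes (0.74) and P2ry12 of microglia (0.70) were at 0.7 or more, as was Eif2s3y (0.72), a Y-linked gene, and no other marker in these lists was. All 15 libraries read as male by Xist and Ddx3y, so the r of the sex-linked genes does not reflect a difference of sex. Choroid plexus RNA went with lower myelin values in the pair of libraries that held it: 5EL 1, at a mean of 11.90, and ELKO 2, at 11.93, ranked 12 and 11 of 15. EL 3 and ELKO 3, low in GABAergic genes (7.59 and 8.33), were among the 3 highest in myelin, while 5EL 1, also low in them (8.21), was among the 5 lowest. Whether the piece of tissue taken had a part in the myelin level was not tested.

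Several of these lists had more nominal calls than the myelin genes. Of 13 microglia genes 9 were higher in 5EL than in EL at a nominal p under 0.05, and of 14 thalamic relay neuron genes 7 were lower, where 3.82% of all genes were higher and 3.88% lower. Of 9 hepatocyte genes 9 were higher in 5ELKO than in 5EL at a nominal p under 0.05, where 1.53% of all genes were higher, and 3 of them at an adjusted p under 0.05, which are all the genes called there. All 8 GABAergic genes had a positive difference in 5ELKO against 5EL (median 0.33), with 0 at a nominal p under 0.05. Their part in the myelin values was not tested.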

How the data were processed

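Polyadenylated RNA of the thalamus was sequenced from 15 mice, and samples were grouped by the labels. By the submitters' processing notes and the study's methods, the authors used Trimmomatic 0.39 for trimming and HISAT2 2.2.1 for alignment to GRCm38. They counted read pairs on exons per gene name without regard to strand (featureCounts 2.0.3) and used DESeq2 1.38.3; the annotation release is not given in the sources used here. They deposited log2 values, whose transform is not named, for 29659 genes per library, with low genes drawn together. No counts were used, so depth and precision per gene are unknown, and limma 3.58.1 in R 4.3.3 (lmFit, eBayes with a trend, Benjamini-Hochberg adjustment over all tested genes) took the place of a count model. The study's supplement lists RNA integrity and total reads of the 5EL and 5ELKO libraries, and its lowest RNA integrity values are in 5ELKO. If its numbers match the labels used here, 5ELKO 2 had the lowest RNA integrity of the 5EL and 5ELKO libraries analysed. These measures were not used here, and their part in the values was not tested. A gene was tested if it reached log2 of 10 in at least 4 of the 9 or 3 of the 15 libraries fitted. 5ELKO against 5EL was fitted on its 9 libraries (15743 genes) and the other comparisons on all 15 (15804 genes), and p-values measure the spread between libraries. The fits were tested on simulated data.

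The myelin genes, the other lists and the tests were chosen with earlier results of these data known. All 9 genes are described. From each other list at most 4 genes per comparison, those of smallest nominal p, could be named, together with Myrf, Sox10, Olig2, Pdgfra, C4b and Serpina3n, and the 10 genes most like and 5 most unlike the mean of the 9. Some items under this rule are not reported here. Other genes singled out for their correlation were named after their values were seen. EL and ELKO libraries with the same number departed from their group means together over the tested genes (r = 0.45, 0.33 and 0.74). Same-numbered libraries of the other groups did not in every pair. ELKO 2 with EL 1 (r = 0.38) and ELKO 1 with EL 2 (r = 0.30) also departed together. The numbers therefore do not set libraries 1 and 2 apart as pairs, and the labels do not say what the numbers share. Alternatives were the filter, the scaling, the variance prior, Xist as a covariate, the replicate block, the libraries fitted, and each library left out in turn. Xist was below the filter in every library, so as a covariate it carries no difference of sex. Gene models came from GENCODE M21 and promoters from RefSeq, both GRCm38. Figures were drawn with matplotlib 3.10.9.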

Additional observations from a re-analysis of the deposited data

Results flagged for a closer look

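In groups of 4 or 5 libraries, the myelin genes and their mean were checked for a library far from the others, in 20 groups of values. One stood out: Mbp in 5ELKO 2 was 15.67, below the other 3 5ELKO libraries, and the gap to the nearest was 0.868 of the range of the group. Chance alone gives about 1 such value in 20 groups. These groups share libraries and correlated genes, so they are not 20 independent checks. The same library was also low in Mobp (14.32), Cldn11 (11.55) and Mal (12.32). By number, the study's supplement gives it the lowest RNA integrity of the 5EL and 5ELKO libraries analysed, whose part was not tested.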

How the results depend on the processing

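Over 44 alternatives other than leaving out each library in turn, 0 of 9 myelin genes had a nominal p under 0.05 in any comparison (smallest 0.153), and the smallest limma adjusted p was 0.647. They include fits without 5EL 1 and ELKO 2. For 5ELKO against 5EL that fit drops only 5EL 1 and is also counted among those with 1 library left out. Signs changed in 33 of 396 uncalled values, by at most 0.19 in log2. A change of the filter, the variance prior or the further groups in the fit cannot move a difference. Those values could not change sign, so this share understates how often signs changed where they could. With 1 library left out, 87 of 621 uncalled values changed sign, and 3 of 69 fits had a myelin gene at a nominal p under 0.05. The count of myelin genes at a nominal p under 0.05 then ranged from 0 to 3 for 5ELKO against 5EL (3 without 5ELKO 2, 1 without 5ELKO 1) and from 0 to 1 for 5ELKO against ELKO (1 without 5ELKO 2), with 0 at an adjusted p under 0.05 throughout. Leaving out a library outside the compared groups cannot move their difference either, so the share of 87 in 621 is understated in the same way. A sign change is not counted as a reversal where the value was uncalled and moved by less than the within-group SD of the gene.

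Counts over all genes at a nominal p under 0.05 depended more on the settings. Without the filter they were 912 in place of 392 (5ELKO against 5EL), 916 in place of 372 (ELKO against EL), 935 in place of 375 (5ELKO against ELKO) and 964 in place of 432 (interaction). These fits tested 29659 genes in place of 15743 or 15804. In the same order, the shares were 3.07% against 2.49%, 3.09% against 2.35%, 3.15% against 2.37% and 3.25% against 2.73%. For 5EL against EL the share was lower without the filter, 5.74% against 7.7%. In fits of the compared groups alone, with a replicate block and without it, the counts were 1110 and 173 for ELKO against EL and 245 and 393 for 5ELKO against ELKO, where the block also takes 5ELKO 4, which has no partner, out of the difference. The interaction had 784 with the block, which likewise takes out 5EL 5. The block changed no call of a myelin gene. ELKO against EL had 188 without 5EL 1 and ELKO 2. With 1 library left out they ran from 194 (ELKO 2) to 1832 (EL 1) for ELKO against EL, from 354 (EL 3) to 3204 (EL 1) for 5EL against EL, from 269 (5ELKO 4) to 794 (ELKO 1) for 5ELKO against ELKO and from 269 (ELKO 2) to 1231 (EL 1) for the interaction. Without EL 1, 31 genes had an adjusted p under 0.05 in 5EL against EL, where 0 had one with it. The 3 genes at an adjusted p under 0.05 in 5ELKO against 5EL were 0 with all 15 libraries 1 without the filter or with the block, and 0 to 4 with 1 library left out. The cause of these changes was not tested. Since the values carry no counts, the depth behind a difference cannot be given.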
